A study of Homo sapiens with 6 samples.

Results

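The levels of 33 genes of glycolysis and of the hypoxia response were followed through RNA sequencing of 3 established human thyroid cancer cell lines. The genes were given by name, and all 33 were found among the 58884 gene identifiers of the deposited table. The table holds 6 libraries, 1 per condition. 8505C cells, from an anaplastic thyroid carcinoma, carried a vector that expresses CRABP2 or the empty vector. FTC-133 cells, from a follicular thyroid carcinoma, and BHT-101 cells, from an anaplastic thyroid carcinoma, were given an siRNA that targets CRABP2 (siCRABP2) or a control one (siControl). CRABP2 encodes a cellular protein that binds retinoic acid, and the series asked what its loss or gain does to gene expression. Nothing in the sources used here says whether cultures were grown separately, whether the 8505C vector cells were clones or pools, or at what oxygen level and cell density cells were kept.

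Glycolysis splits glucose into pyruvate, and lactate dehydrogenase turns pyruvate into lactate when it does not enter the mitochondrion. The hypoxia-inducible factors (HIF) are transcription factors that are hydroxylated and destroyed when oxygen is present, and that switch on glucose transporters, glycolytic enzymes, angiogenic factors and prolyl hydroxylases when oxygen is scarce. Many of these genes also respond to growth signals, and carcinoma cell lines commonly express them in ordinary culture. HIF binds short DNA elements with the core ACGTG or GCGTG.

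Promoters are shown for 2 of the highest and 2 of the lowest members of the FTC-133 comparison that had a usable RefSeq entry, because these 4 genes differed in opposite directions there. They were chosen after the values were seen. Each window covers 250 bases before and 50 bases after the RefSeq start (GRCh38.p14), on the gene's strand, with every ACGTG or GCGTG on either strand in capitals. CA9 lies at chr9:35673678-35673977 (plus strand), ALDOC at chr17:28576846-28577145 (minus strand), PFKFB4 at chr3:48556754-48557053 (minus strand) and ANKRD37 at chr4:185396591-185396890 (plus strand).
CA9: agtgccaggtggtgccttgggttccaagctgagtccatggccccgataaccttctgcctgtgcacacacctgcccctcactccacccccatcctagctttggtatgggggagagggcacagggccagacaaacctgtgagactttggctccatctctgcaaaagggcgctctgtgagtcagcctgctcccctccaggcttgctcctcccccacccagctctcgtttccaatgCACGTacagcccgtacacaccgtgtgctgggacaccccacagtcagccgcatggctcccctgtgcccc
ALDOC: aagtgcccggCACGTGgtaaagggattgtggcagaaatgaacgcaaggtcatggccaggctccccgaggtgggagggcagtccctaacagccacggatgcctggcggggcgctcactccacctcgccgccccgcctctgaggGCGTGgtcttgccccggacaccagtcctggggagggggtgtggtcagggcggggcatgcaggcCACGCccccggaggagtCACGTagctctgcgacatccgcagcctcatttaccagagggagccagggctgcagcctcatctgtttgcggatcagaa
PFKFB4: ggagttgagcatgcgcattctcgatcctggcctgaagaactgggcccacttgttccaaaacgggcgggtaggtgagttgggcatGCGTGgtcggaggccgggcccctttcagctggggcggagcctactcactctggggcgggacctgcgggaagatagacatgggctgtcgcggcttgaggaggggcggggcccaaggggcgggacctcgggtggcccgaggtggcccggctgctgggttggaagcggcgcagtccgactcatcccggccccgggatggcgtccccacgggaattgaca
ANKRD37: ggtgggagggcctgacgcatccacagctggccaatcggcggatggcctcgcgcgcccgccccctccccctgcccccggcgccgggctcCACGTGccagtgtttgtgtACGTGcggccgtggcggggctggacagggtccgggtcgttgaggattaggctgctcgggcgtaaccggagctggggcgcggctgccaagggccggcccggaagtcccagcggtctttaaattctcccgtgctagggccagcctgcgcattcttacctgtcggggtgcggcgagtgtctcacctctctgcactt

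The CA9 window holds 1 core, on the minus strand, whose leftmost base lies 18 bases before the start (position -18). ALDOC holds 5 matches, of which 2 overlap in the palindrome CACGTG. ANKRD37 holds 3, of which 2 overlap in the same palindrome, and PFKFB4 holds 1 GCGTG. Thus genes that were higher and genes that were lower in FTC-133 siCRABP2 cells both carried the core. A promoter entry was found for 29 of the 33 members, and 21 of these (72.4%) held a core of either form, as did 48.4% of all 35116 promoters of that length. For ACGTG alone the shares were 41.4% of the members and 21.4% of all promoters. LDHA and BNIP3 held the most matches, 6 each. A match describes letters and not a bound site.

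CRABP2 followed its labels. It was 38.0 FPKM with the CRABP2 vector and 0.607 FPKM with the empty vector in 8505C, 0.170 FPKM with siCRABP2 and 8.94 FPKM with siControl in FTC-133 and 11.4 FPKM with siCRABP2 and 27.3 FPKM with siControl in BHT-101. FPKM is a read number scaled by exon length and library depth, and read totals recovered from the values ran from 22084109 to 27958621 per library. Of 13 thyroid lineage and epithelial markers, 4 reached 1 FPKM in 8505C, 6 in FTC-133 and 6 in BHT-101. The lineage factor PAX8 exceeded 1 FPKM in FTC-133 alone, at 13.0 FPKM with siCRABP2 and 12.3 FPKM with siControl. NKX2-1 was 13.1 FPKM with the CRABP2 vector and 16.7 FPKM with the empty vector in 8505C and 12.4 FPKM with siCRABP2 and 22.6 FPKM with siControl in FTC-133, and was listed at 0 in both BHT-101 libraries. The hormone precursor TG did not exceed 0.05 FPKM in any library. Of 16 markers of other cell types, 2 or 3 reached 1 FPKM in each library. In bulk RNA, fewer cells of a kind and less RNA per cell cannot be told apart.

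The 33 genes differed far more between the cell lines than between the 2 libraries of a line. FTC-133 had the highest mean level for 21 members, and for 16 of these it lay beyond the next line by limma. 8505C was highest for 8 members (4 beyond the next line) and BHT-101 for 4 (1 beyond the next line). For these comparisons log2(FPKM + 1) was fitted across all 13736 genes with at least 1 FPKM in 2 or more libraries, with the 2 libraries of a line as the spread, which therefore includes the effect of the treatment. CA9, ALDOC and ANKRD37 met this filter only through FTC-133, and EGLN3 only through BHT-101, so these 4 had to differ and their line differences are given as descriptions, with no test. The counts of highest lines above include them. CA9, ALDOC and ANKRD37 are among the 16 for FTC-133, and EGLN3 is the 1 for BHT-101, so these 4 are not to be read as test results. Line differences are common across the genome, since 48.9% of all genes passed an adjusted p under 0.05 for FTC-133 against BHT-101, 62.1% for 8505C against BHT-101 and 60.2% for 8505C against FTC-133. Of the 33 members, 22 were higher and 2 lower in FTC-133 than in BHT-101, 11 higher and 10 lower in 8505C than in BHT-101, and 4 higher and 20 lower in 8505C than in FTC-133. Without those 4 genes, the counts over 29 members were 19 and 1, 11 and 9, and 4 and 17 in the same order. The median member differences were 0.95, -0.11 and -0.93, beside 0.16, -0.01 and -0.13 over all genes. Without the BHT-101 siControl or siCRABP2 library, 14 or 15 members passed for FTC-133 against BHT-101.

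**Figure D1:**
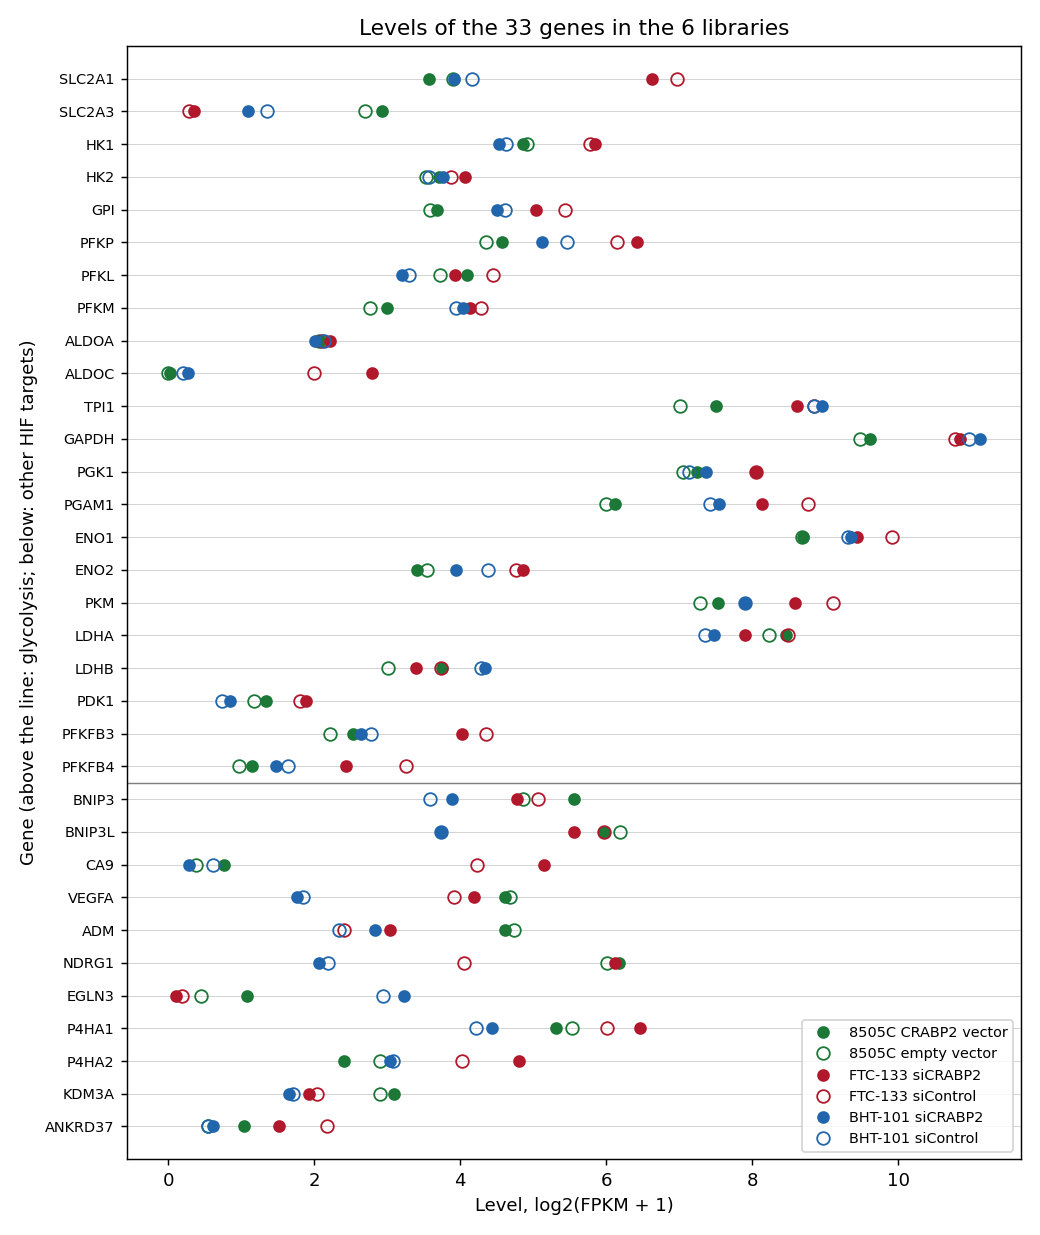
Level of each gene on the log2(FPKM + 1) scale (x axis) in every library, with 8505C in green, FTC-133 in red and BHT-101 in blue, CRABP2 vector or siCRABP2 as filled circles and empty vector or siControl as open circles. The filled and open circles of a line mostly lie close together, while the lines stand apart for genes such as SLC2A1, CA9, EGLN3 and NDRG1, whose 2 FTC-133 libraries are also far apart.

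Transcripts of the 2 glucose transporter members differed between the lines, while glucose uptake was not measured. SLC2A1, which encodes the widespread glucose transporter GLUT1 (chromosome 1, 42925375 to 42959176, minus strand), was 10.9 FPKM with the CRABP2 vector and 13.9 FPKM with the empty vector in 8505C, 98.2 FPKM with siCRABP2 and 125 FPKM with siControl in FTC-133 and 14.1 FPKM with siCRABP2 and 16.9 FPKM with siControl in BHT-101. Both FTC-133 libraries lay above all others, with a log2 difference of 2.76 (SE 0.19, limma adjusted p = 0.000112) from BHT-101 and of -3.06 (SE 0.19, limma adjusted p = 8.25e-05) for 8505C minus FTC-133. SLC2A3, which encodes the high-affinity transporter GLUT3, ran the other way, at 6.65 FPKM with the CRABP2 vector and 5.51 FPKM with the empty vector in 8505C, 0.285 FPKM with siCRABP2 and 0.219 FPKM with siControl in FTC-133 and 1.13 FPKM with siCRABP2 and 1.56 FPKM with siControl in BHT-101. SLC2A3 therefore made up 37.8% and 28.3% of the summed FPKM of the pair in the CRABP2 vector and empty vector libraries of 8505C, but under 0.3% in either FTC-133 library.

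The enzymes that carry glucose to pyruvate and lactate were mostly lower in 8505C. Of the 17 enzyme members, none was higher and 12 were lower in 8505C than in FTC-133, beside 24.9% higher and 35.3% lower over all genes. Without ALDOC, which met the filter only through FTC-133, none was higher and 11 of 16 were lower. Against BHT-101, 2 enzymes were higher and 9 were lower in 8505C, beside 30.1% and 32% of all genes. FTC-133 had 10 of 17 higher and none lower than BHT-101, beside 30.2% and 18.7% of all genes, and 9 of 16 without ALDOC. PGAM1, the phosphoglycerate mutase, was 68.4 FPKM with the CRABP2 vector and 62.8 FPKM with the empty vector in 8505C, 281 FPKM with siCRABP2 and 436 FPKM with siControl in FTC-133 and 186 FPKM with siCRABP2 and 171 FPKM with siControl in BHT-101. All 3 lines differed from each other, with -2.40 (SE 0.23, limma adjusted p = 0.000303) for 8505C minus FTC-133. TPI1, the triose phosphate isomerase, was 180.4 FPKM with the CRABP2 vector and 127 FPKM with the empty vector in 8505C, 390.4 FPKM with siCRABP2 and 459.9 FPKM with siControl in FTC-133 and 495 FPKM with siCRABP2 and 459.6 FPKM with siControl in BHT-101. GAPDH, which oxidises the triose, was the highest of the 33 genes in every library, at 783 FPKM with the CRABP2 vector and 709 FPKM with the empty vector in 8505C, 1833 FPKM with siCRABP2 and 1756 FPKM with siControl in FTC-133 and 2223 FPKM with siCRABP2 and 1996 FPKM with siControl in BHT-101. For both genes 8505C lay below the other lines, whereas FTC-133 minus BHT-101 was -0.23 for GAPDH and -0.17 for TPI1 and passed for neither. Together the 17 enzymes held 1.002% and 0.893% of reads in the CRABP2 vector and empty vector libraries of 8505C, 1.76% and 2.17% in the siCRABP2 and siControl libraries of FTC-133, and 1.55% and 1.46% in the siCRABP2 and siControl libraries of BHT-101.

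Single steps departed from this order. LDHA, the subunit of lactate dehydrogenase that favours lactate, was 350.4 FPKM with the CRABP2 vector and 299 FPKM with the empty vector in 8505C, 237 FPKM with siCRABP2 and 358 FPKM with siControl in FTC-133 and 178 FPKM with siCRABP2 and 162 FPKM with siControl in BHT-101, so that BHT-101 was lowest. Its partner LDHB, the subunit typical of heart, was 12.5 FPKM with the CRABP2 vector and 7.07 FPKM with the empty vector in 8505C, 9.56 FPKM with siCRABP2 and 12.3 FPKM with siControl in FTC-133 and 19.4 FPKM with siCRABP2 and 18.5 FPKM with siControl in BHT-101. LDHB made up 9.81% and 10.3% of lactate dehydrogenase FPKM in the siCRABP2 and siControl libraries of BHT-101, and between 2.31% and 3.87% in the other 4 libraries. PFKL, the liver-type phosphofructokinase, held 35.0% and 32.7% of phosphofructokinase FPKM in the CRABP2 vector and empty vector libraries of 8505C, against 12.3% to 19.1% elsewhere, and the platelet-type PFKP was the largest part in every library. HK1, the widespread hexokinase, exceeded the inducible HK2 in all 6 libraries, with 63.7% to 79.8% of the pair, and HK2 and ALDOA were the only members that passed in no comparison of lines. PFKFB3, which makes the activator of phosphofructokinase, and its relative PFKFB4 were highest in FTC-133, with log2 differences from BHT-101 of 1.48 (SE 0.18, limma adjusted p = 0.0011) and 1.29 (SE 0.27, limma adjusted p = 0.00951). GPI, which turns glucose 6-phosphate into fructose 6-phosphate, was 11.9 FPKM with the CRABP2 vector and 11.02 FPKM with the empty vector in 8505C, 31.9 FPKM with siCRABP2 and 42.4 FPKM with siControl in FTC-133 and 21.7 FPKM with siCRABP2 and 23.5 FPKM with siControl in BHT-101. PFKM, the muscle-type phosphofructokinase, was 7.03 FPKM with the CRABP2 vector and 5.80 FPKM with the empty vector in 8505C, 16.5 FPKM with siCRABP2 and 18.6 FPKM with siControl in FTC-133 and 15.5 FPKM with siCRABP2 and 14.5 FPKM with siControl in BHT-101. PDK1, which keeps pyruvate out of the mitochondrion by inhibiting pyruvate dehydrogenase, was low throughout, at 1.55 FPKM with the CRABP2 vector and 1.27 FPKM with the empty vector in 8505C, 2.72 FPKM with siCRABP2 and 2.504 FPKM with siControl in FTC-133 and 0.794 FPKM with siCRABP2 and 0.666 FPKM with siControl in BHT-101. None of the 3 genes was 0.5 or more apart within a line.

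**Figure D2:**
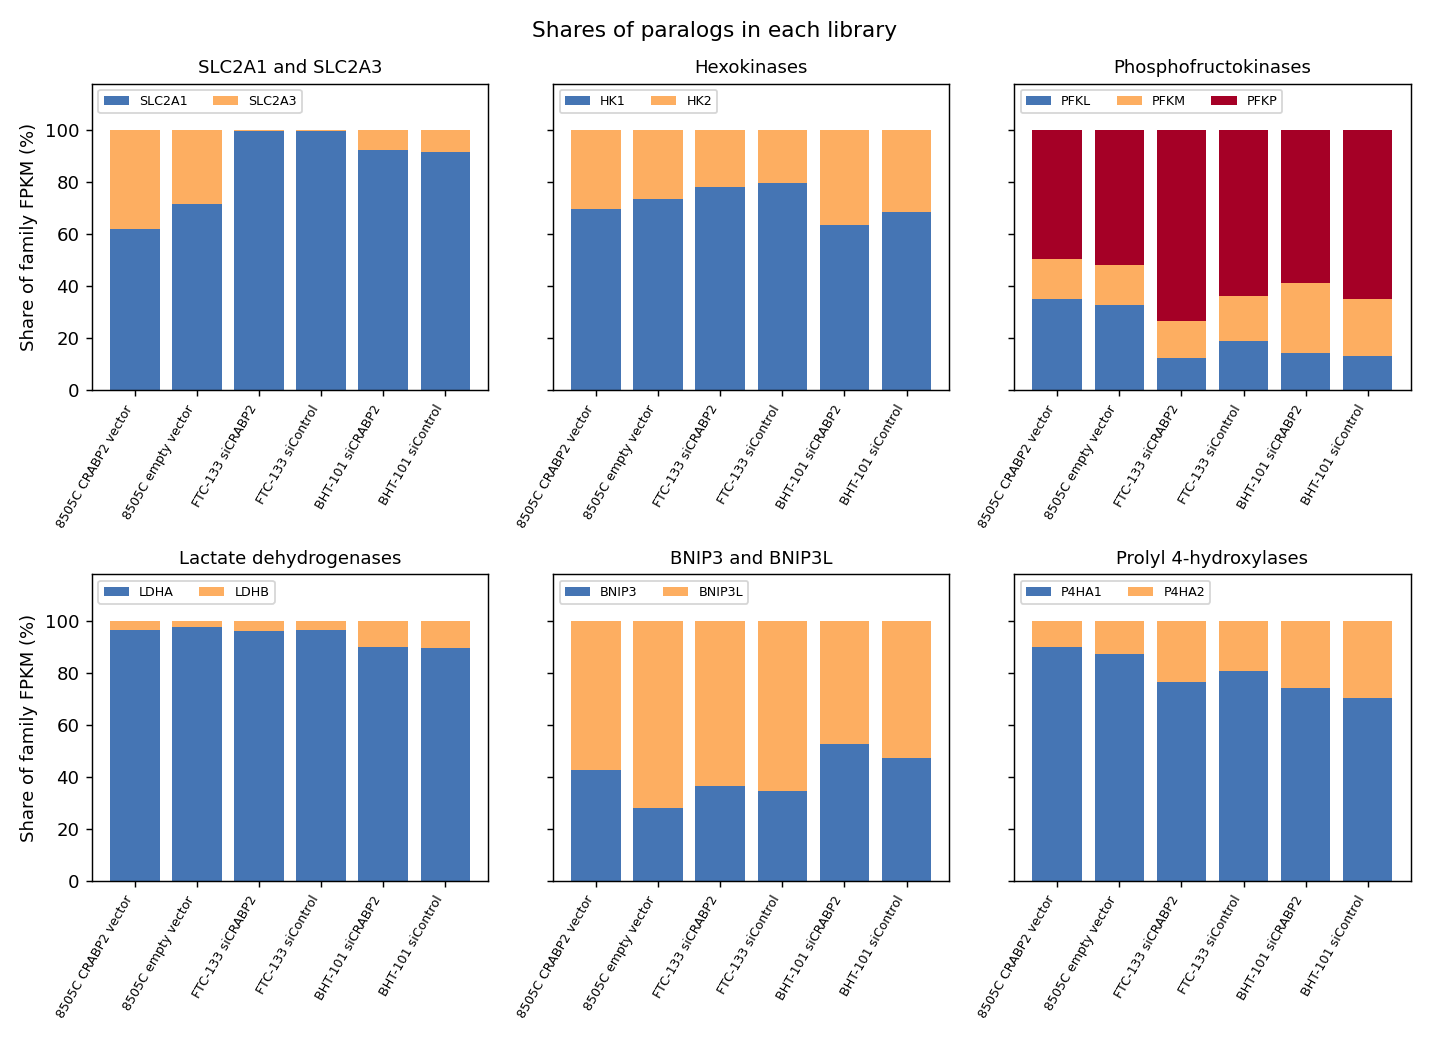
Share of each paralog in the summed FPKM of its family (y axis, percent) in each of the 6 libraries (x axis). SLC2A3 and PFKL take their largest shares in the 8505C libraries, LDHB in the BHT-101 libraries, and BNIP3 holds 42.8% of its pair with the CRABP2 vector against 28.0% with the empty vector.

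ALDOA, the main aldolase of most tissues, was only 3.05 to 3.64 FPKM in the 6 libraries, where it ranked between 7928 and 8521 among all genes. In GENCODE release 29, 53.5% of its exon bases are shared with other genes and 42.3% with the read-through gene AC093512.2 on the same strand. The sources used here do not say how reads that fall on 2 genes were counted, and the part this plays in the low value was not tested. Its level is therefore uncertain, as is the share of ALDOC, the brain-type aldolase, in the pair. Exon bases are shared with other genes to 38.5% for CA9, 35.2% for ANKRD37 and 33.4% for LDHB as well. GAPDH and BNIP3 have 62 and 39 pseudogenes numbered under their symbols, so reads of near-identical copies are uncertain for them.

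HIF targets outside glycolysis were mostly lower in BHT-101. Of these 11 genes, 8 were higher and 1 lower in FTC-133 than in BHT-101, beside 30.2% and 18.7% of all genes. In 8505C 7 were higher and 1 lower than in BHT-101, beside 30.1% and 32% of all genes. Between 8505C and FTC-133 the group was split, with 3 higher and 4 lower, beside 24.9% and 35.3% of all genes. Without CA9, ANKRD37 and EGLN3, the counts over 8 genes were 6 and 0, 7 and 0, and 3 and 2 in the same order. NDRG1, a stress-induced gene named as a downstream target of N-myc (chromosome 8, 133237171 to 133302022, minus strand), was 71.4 FPKM with the CRABP2 vector and 63.3 FPKM with the empty vector in 8505C, 68.5 FPKM with siCRABP2 and 15.6 FPKM with siControl in FTC-133 and 3.20 FPKM with siCRABP2 and 3.55 FPKM with siControl in BHT-101. VEGFA, the vascular growth factor (chromosome 6, 43770184 to 43786487, plus strand), was 23.5 FPKM with the CRABP2 vector and 24.6 FPKM with the empty vector in 8505C, 17.3 FPKM with siCRABP2 and 14.1 FPKM with siControl in FTC-133 and 2.40 FPKM with siCRABP2 and 2.61 FPKM with siControl in BHT-101, with 2.84 (SE 0.15, limma adjusted p = 3.89e-05) for 8505C minus BHT-101. ADM, which encodes the vasodilator adrenomedullin, was 23.5 FPKM with the CRABP2 vector and 25.8 FPKM with the empty vector in 8505C, 7.23 FPKM with siCRABP2 and 4.33 FPKM with siControl in FTC-133 and 6.14 FPKM with siCRABP2 and 4.09 FPKM with siControl in BHT-101, so that 8505C stood above the other lines. The mitophagy receptor BNIP3L followed the same order as NDRG1, at 61.7 FPKM with the CRABP2 vector and 71.8 FPKM with the empty vector in 8505C, 46.2 FPKM with siCRABP2 and 61.7 FPKM with siControl in FTC-133 and 12.3 FPKM with siCRABP2 and 12.3 FPKM with siControl in BHT-101.

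CA9 and EGLN3 were each high in a single line. CA9 encodes a cell surface carbonic anhydrase and is widely used as a marker of hypoxia (chromosome 9, 35673856 to 35681159, plus strand). It was 0.704 FPKM with the CRABP2 vector and 0.299 FPKM with the empty vector in 8505C. In FTC-133 it was 34.4 FPKM with siCRABP2 and 17.8 FPKM with siControl. In BHT-101 it was 0.223 FPKM with siCRABP2 and 0.534 FPKM with siControl. The 8505C and BHT-101 values rest on 25 and 11 reads with the CRABP2 vector and empty vector, and on 8 and 24 reads with siCRABP2 and siControl. EGLN3, one of the hydroxylases that mark HIF for destruction and itself a HIF target (chromosome 14, 33924231 to 34462774, minus strand), was 1.13 FPKM with the CRABP2 vector and 0.369 FPKM with the empty vector in 8505C, 0.0750 FPKM with siCRABP2 and 0.142 FPKM with siControl in FTC-133 and 8.42 FPKM with siCRABP2 and 6.70 FPKM with siControl in BHT-101. Its log2 difference for FTC-133 minus BHT-101 was -2.94, opposite in sign to that of CA9, at 4.23. The collagen prolyl hydroxylase subunits P4HA1 and P4HA2 were highest in FTC-133, with differences from BHT-101 of 1.91 (SE 0.20, limma adjusted p = 0.000515) and 1.36 (SE 0.29, limma adjusted p = 0.00961). KDM3A, a histone demethylase and HIF target, was 7.58 FPKM with the CRABP2 vector and 6.49 FPKM with the empty vector in 8505C, 2.81 FPKM with siCRABP2 and 3.13 FPKM with siControl in FTC-133 and 2.15 FPKM with siCRABP2 and 2.27 FPKM with siControl in BHT-101, highest in both 8505C libraries.

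The factors themselves were read from a list of 9 HIF pathway genes, of which 7 passed the filter. HIF1A and EPAS1, which encode HIF-1 alpha and HIF-2 alpha and were singled out after their values were seen, differed in some comparisons of lines. HIF1A was 203 FPKM with the CRABP2 vector and 178 FPKM with the empty vector in 8505C, 261 FPKM with siCRABP2 and 239 FPKM with siControl in FTC-133 and 37.6 FPKM with siCRABP2 and 33.8 FPKM with siControl in BHT-101, and the differences from BHT-101 were 2.38 (SE 0.15, limma adjusted p = 6.77e-05) for 8505C and 2.78 (SE 0.15, limma adjusted p = 4.59e-05) for FTC-133. EPAS1 was 60.7 FPKM with the CRABP2 vector and 90.9 FPKM with the empty vector in 8505C, 11.9 FPKM with siCRABP2 and 5.90 FPKM with siControl in FTC-133 and 12.0 FPKM with siCRABP2 and 11.5 FPKM with siControl in BHT-101. HIF is controlled mainly through protein stability, which these data do not measure. In a list of 35 other HIF targets, 19 were higher and 3 lower in FTC-133 than in BHT-101, beside 30.2% and 18.7% of all genes. For 8505C against BHT-101, 15 were higher and 10 lower, beside 30.1% and 32%, and for 8505C against FTC-133, 7 were higher and 17 lower, beside 24.9% and 35.3%. This list was not checked for genes that met the filter only through 1 line, so its counts are descriptions. PPFIA4, higher in FTC-133, and RORA, higher in 8505C, reached 1 FPKM in only 2 libraries. SLC16A3, the lactate exporter MCT4 and also a HIF target, ran against the list in BHT-101. It was 11.4 FPKM with the CRABP2 vector and 13.7 FPKM with the empty vector in 8505C, 1.28 FPKM with siCRABP2 and 2.34 FPKM with siControl in FTC-133 and 49.8 FPKM with siCRABP2 and 49.4 FPKM with siControl in BHT-101, and was likewise singled out after its values were seen.

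Within lines, the members lay farthest from 0 with siCRABP2 in FTC-133, and in both directions. NDRG1 was 68.5 FPKM with siCRABP2 and 15.6 FPKM with siControl, which is 2.06 higher as log2(FPKM + 1) and a 4.38-fold ratio of FPKM. It was the only member with a difference of at least 1 on that scale between the FTC-133 libraries among the 31 that reached 1 FPKM in 1 or both, beside 4.71% of all 12832 measured genes (2.36% higher and 2.35% lower). The 95% exact (Clopper-Pearson) counting interval of its log2 ratio of reads, scaled by depth, was from 2.08 to 2.18, with 18287 reads with siCRABP2 and 3816 with siControl. Such intervals cover counting error only, and differences within a line have no replicates to check them, at 1 library per group.

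Next above 0 in FTC-133 were other HIF targets and an aldolase. CA9 was 34.4 FPKM with siCRABP2 and 17.8 FPKM with siControl (0.92), with 1503 and 709 reads. ALDOC was 5.94 FPKM with siCRABP2 and 3.01 FPKM with siControl (0.79), P4HA2 26.9 FPKM with siCRABP2 and 15.3 FPKM with siControl (0.78), ADM 7.23 FPKM with siCRABP2 and 4.33 FPKM with siControl (0.63) and P4HA1 87.3 FPKM with siCRABP2 and 63.6 FPKM with siControl (0.45). VEGFA was 17.3 FPKM with siCRABP2 and 14.1 FPKM with siControl (0.28). Each of these 6 genes had a counting interval wholly above 0. At this depth most members had intervals that left out 0, with 12 of 31 wholly above it, 16 wholly below it and 3 that included it.

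Below 0 in FTC-133 lay both PFKFB regulators, both mitophagy receptors and 9 of the 17 enzymes. For the enzymes this is 52.9%, near the 53.9% of all measured genes below 0. The 6 enzymes of lower glycolysis were split, with 3 above and 3 below 0. PFKFB4 was 4.41 FPKM with siCRABP2 and 8.53 FPKM with siControl (-0.82) and PFKFB3 15.3 FPKM with siCRABP2 and 19.5 FPKM with siControl (-0.33). The enzymes PGAM1 (-0.63), LDHA (-0.59), PKM, the pyruvate kinase of most tissues (-0.53), PFKL (-0.52) and ENO1, the enolase that follows PGAM1 (-0.48), formed the next set. ENO1 alone was 692 FPKM with siCRABP2 and 965 FPKM with siControl. ANKRD37, an ankyrin repeat gene known mainly as a HIF target, was 1.86 FPKM with siCRABP2 and 3.50 FPKM with siControl (-0.65), from 114 and 196 reads. SLC2A1 and the mitophagy receptors BNIP3L and BNIP3 were lower as well, at -0.34, -0.41 and -0.28. Other enzymes of the same chain stood near 0, with GAPDH at 0.06, PGK1, the phosphoglycerate kinase, at 0.01, ENO2 at 0.10 and HK1 at 0.06, and PFKP was above 0 at 0.27.

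Counted together in FTC-133, 15 members stood above 0 and 16 stood below it, beside 46.1% and 53.9% of all measured genes. The members' median was -0.12 beside -0.04 over all measured genes. A difference of at least 0.5, a size chosen after the values were seen, was reached by 11 of the 31 members, 5 above and 6 below, beside 23.4% of all measured genes. The share of summed FPKM from the mitochondrial genome was 10.8% with siCRABP2 and 14.1% with siControl. The summed FPKM of the 16 markers of other cell types was 34.4 with siCRABP2 and 55.8 with siControl, mostly COL1A1 at 24.1 FPKM with siCRABP2 and 39.6 FPKM with siControl and ACTA2 at 8.74 FPKM with siCRABP2 and 14.8 FPKM with siControl. The part of either in these differences was not tested.

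**Figure D3:**
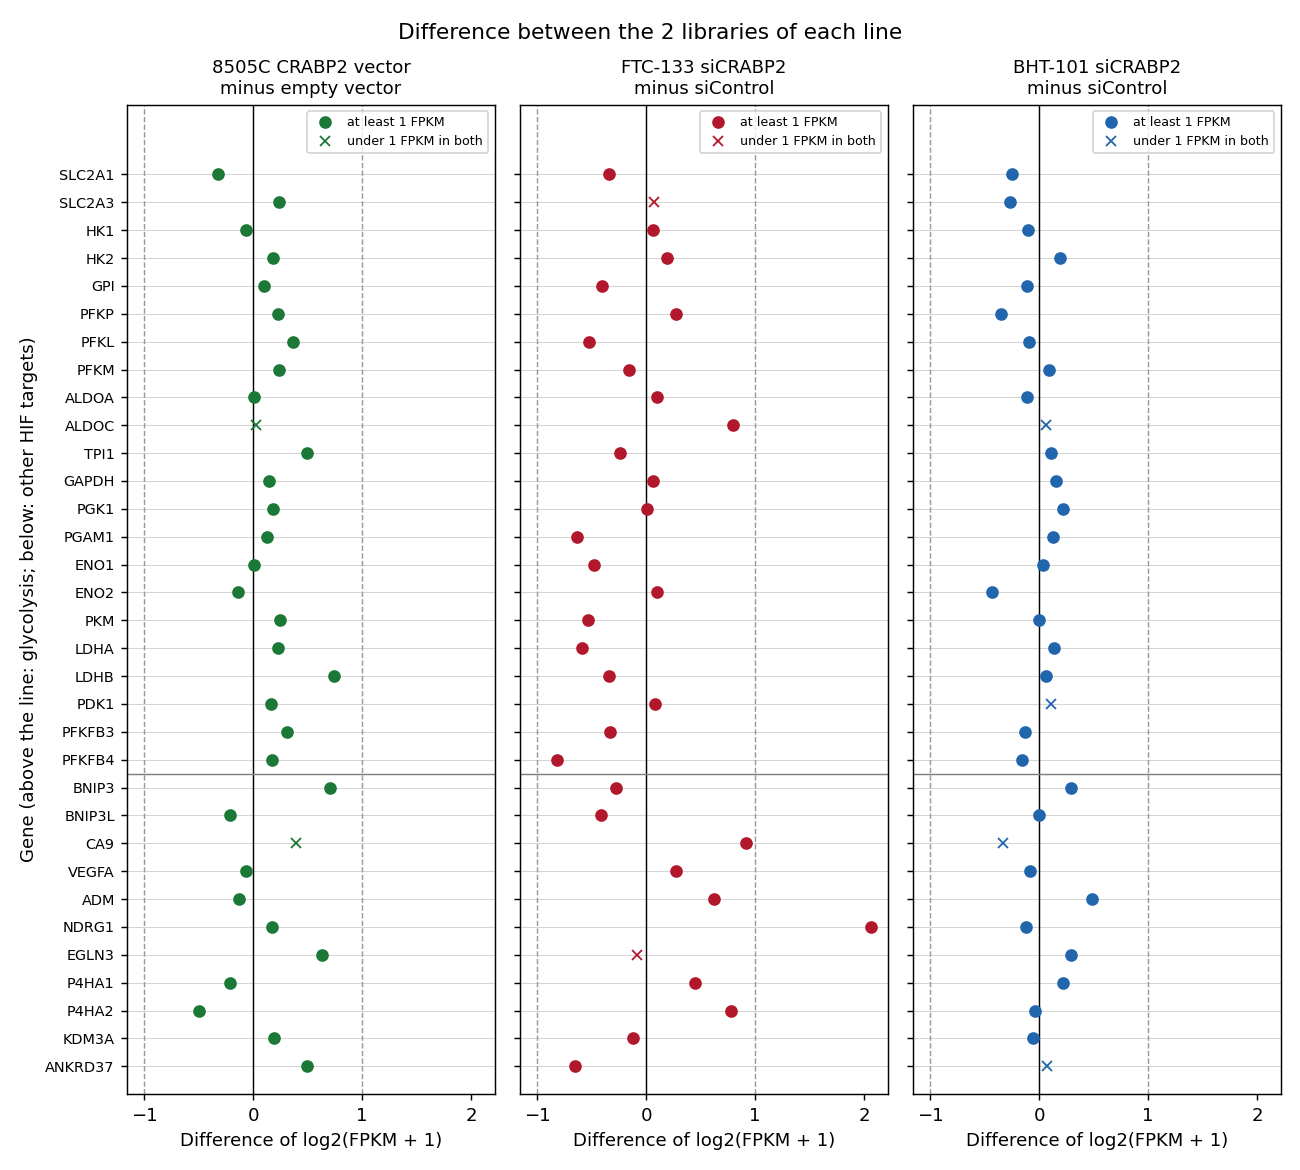
Difference of log2(FPKM + 1) between the 2 libraries of each line (x axis) for every member, CRABP2 vector minus empty vector in 8505C and siCRABP2 minus siControl in FTC-133 and BHT-101, with dashed lines at a difference of 1. Only NDRG1 in FTC-133, at 2.06, lies beyond a dashed line, and crosses mark genes under 1 FPKM in both libraries of the line.

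In 8505C, where CRABP2 was raised, most members were slightly higher with the CRABP2 vector. Of 31 measured members 23 stood above 0 and 8 below it, and their median was 0.17 beside 0.02 over all measured genes, of which 52.8% were above 0. No member had a difference of at least 1 on the log2(FPKM + 1) scale, beside 3.71% of all 11731 measured genes (1.85% higher and 1.86% lower), and 3 reached 0.5, beside 17.8%. These 3 were LDHB at 12.5 FPKM with the CRABP2 vector and 7.07 FPKM with the empty vector (0.74), BNIP3 at 46.1 FPKM with the CRABP2 vector and 28.0 FPKM with the empty vector (0.70) and EGLN3 at 1.13 FPKM with the CRABP2 vector and 0.369 FPKM with the empty vector (0.64, from 183 and 62 reads). By the ratio of FPKM itself EGLN3 was 3.05-fold higher and ANKRD37 2.28-fold higher with the CRABP2 vector. TPI1, just under a difference of 0.5 (0.50), ANKRD37 (0.49) and PFKL (0.37) followed. Of the 16 measured enzymes, 14 were above 0 and HK1 (-0.06) and ENO2, the neuronal enolase (-0.14), were below. P4HA2 at 4.34 FPKM with the CRABP2 vector and 6.51 FPKM with the empty vector (-0.49), SLC2A1 (-0.32), BNIP3L (-0.22) and P4HA1 (-0.21) lay lowest. The mitochondrial share of summed FPKM was 7.01% with the CRABP2 vector and 11.3% with the empty vector, and the 16 markers of other cell types summed to 17.5 and 22.4 FPKM, mostly CD14 at 12.9 FPKM with the CRABP2 vector and 16.4 FPKM with the empty vector. Their part in these differences was not tested.

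Between siCRABP2 in FTC-133 and the CRABP2 vector in 8505C, members lay on opposite sides of 0 more often than on the same side. Of 29 members measured in both lines 20 had opposite signs (69.0%), beside 45.0% of all 10438 genes measured in both. In all, 14 were lower with siCRABP2 in FTC-133 and higher with the CRABP2 vector in 8505C, among them LDHA, PKM, PGAM1, PFKL, PFKFB3, PFKFB4, BNIP3 and ANKRD37. Another 6 ran the other way, namely P4HA1, P4HA2, ADM, VEGFA, HK1 and ENO2. Across the 29 members the 2 sets of differences had a Pearson correlation of -0.328 and a Spearman correlation of -0.404, against 0.078 and 0.128 over all genes. These describe 4 libraries, and genes of a pathway are not independent points. NDRG1 (0.17 in 8505C) and SLC2A1 were among the exceptions, with the same sign in both lines. Differences in BHT-101 were small, with a median absolute difference of 0.127 over its measured members, so their signs are uncertain. Between the knockdowns in FTC-133 and BHT-101, 55.6% of 27 members had opposite signs, beside 44.7% of all genes (Pearson 0.013 for members). Between the 8505C vector and the BHT-101 knockdown, 44.8% of 29 members did, beside 44.7% of all genes (Pearson 0.252 for members). A part of CRABP2 in these signs was not tested.

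**Figure D4:**
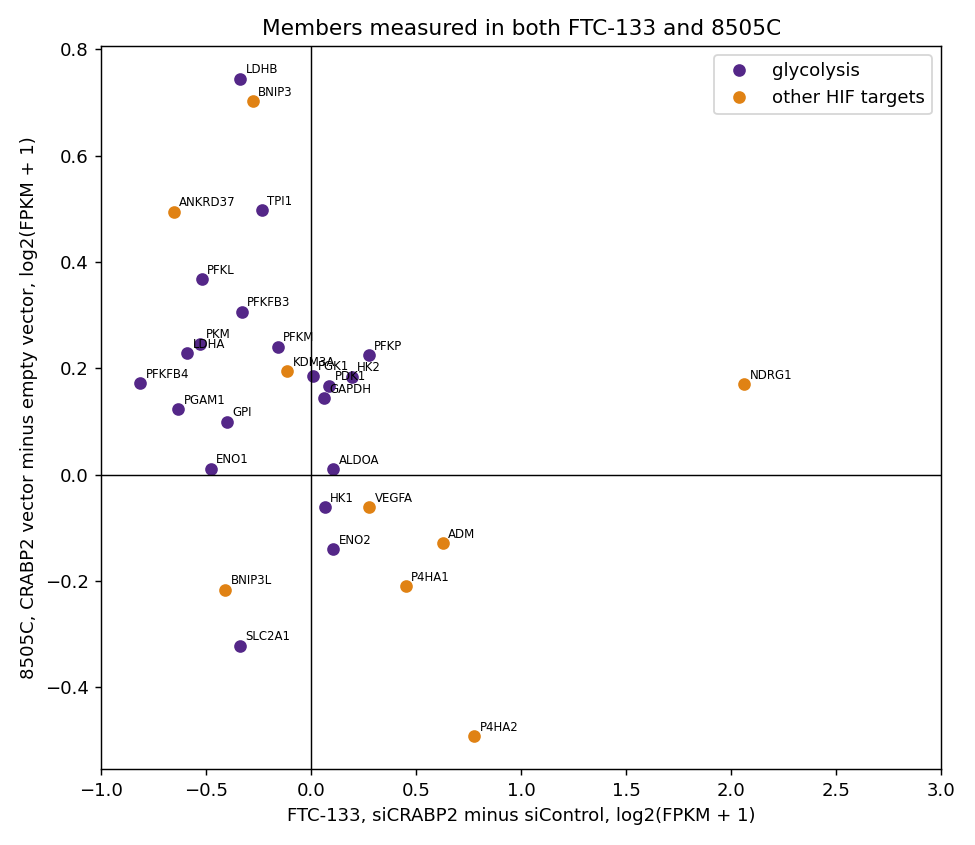
Difference in FTC-133 (x axis, siCRABP2 minus siControl) against that in 8505C (y axis, CRABP2 vector minus empty vector), both on the log2(FPKM + 1) scale, for the 29 members measured in both lines, glycolysis genes in purple and other HIF targets in orange. Of these, 14 lie at the upper left and 6 at the lower right, and NDRG1 stands alone at the far right.

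BHT-101 gave the smallest differences, both for the members and for all measured genes, and the reason was not tested. No measured member had a difference of at least 1 on the log2(FPKM + 1) scale, beside 1.13% of all 12055 measured genes (0.589% higher and 0.539% lower), and none reached 0.5, beside 4.02%. Of 29 members, 14 stood above 0 and 15 below it, beside 53.3% and 46.7% of all measured genes. The members' median was -0.0004 beside 0.01 over all genes. ADM was the highest, at 6.14 FPKM with siCRABP2 and 4.09 FPKM with siControl (0.49), followed by BNIP3 and EGLN3 (0.29 each), PGK1 (0.22) and P4HA1 (0.22). ENO2 was the lowest at 14.4 FPKM with siCRABP2 and 19.8 FPKM with siControl (-0.43), then PFKP at 33.7 FPKM with siCRABP2 and 43.3 FPKM with siControl (-0.35), SLC2A3 (-0.27) and SLC2A1 (-0.25). NDRG1 was 3.20 FPKM with siCRABP2 and 3.55 FPKM with siControl (-0.12), so its difference in FTC-133 had no counterpart of that size here, although the difference between the lines could not be tested. The enzymes LDHA, PGAM1, ENO1 and PKM, which were lower in FTC-133, were near or just above 0, with LDHA at 0.14, PGAM1 at 0.13, ENO1 at 0.04 and PKM at -0.0004. The mitochondrial share of summed FPKM was 17.2% with siCRABP2 and 19.4% with siControl, and the markers of other cell types summed to 5.26 and 6.51 FPKM.

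No member passed a test over lines. In the limma fit of the 4 siRNA libraries with the cell line as a block, 0 of 33 members and 0 of 12953 genes (0%) had an adjusted p under 0.05, and 1 member was higher and 0 lower at an unadjusted p under 0.05, beside 314 and 225 of all genes. That member was ADM, higher with siCRABP2 in 2 of 2 lines by 0.56 (SE 0.17, limma adjusted p = 0.869). NDRG1 had 0.97 (SE 0.47, limma adjusted p = 0.869) and PFKFB4 -0.49 (SE 0.22, limma adjusted p = 0.869). In the fit of all 6 libraries, siCRABP2 and empty vector against siControl and CRABP2 vector, 0 of 31 members and 0 of 11628 genes (0%) passed, and ADM alone was under 0.05 unadjusted, higher in the lower CRABP2 arm of 3 of 3 lines by 0.41 (SE 0.15, limma adjusted p = 0.999). At an unadjusted p under 0.05 this fit held 193 higher and 179 lower genes. Residual degrees of freedom were 1 in the siRNA fit and 2 in the other. CRABP2 itself passed in neither. It had -2.14 (SE 0.42, limma adjusted p = 0.792) in the siRNA fit and -2.96 (SE 0.54, limma adjusted p = 0.999) in the other. Both fits thus missed even the gene that was altered on purpose. With the cell line as a block, the p-values measure how far the arm difference varied between lines, and not a spread between replicates. A p that misses the threshold does not show that a level was unaltered.

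Among 9 other lists of glucose use and HIF signalling, a difference of at least 1 on the log2(FPKM + 1) scale was reached by 1 of 102 measured genes in 8505C, 1 of 106 in FTC-133 and 0 of 102 in BHT-101, beside 3.71%, 4.71% and 1.13% of all measured genes. By the ratio of FPKM itself, 4, 8 and 0 of these genes were at least 2-fold apart in the same order. SLC2A6, a glucose transporter of lysosomes, was 2.04 FPKM with siCRABP2 and 5.68 FPKM with siControl in FTC-133 (-1.14). TXNIP, which restrains glucose uptake, was 15.5 FPKM with the CRABP2 vector and 42.1 FPKM with the empty vector in 8505C (-1.39). Over all measured genes the shares above 0 were 52.8% in 8505C, 46.1% in FTC-133 and 53.3% in BHT-101. The 35 other HIF targets had 16 of 34 measured genes above 0 in FTC-133 (median -0.04), 22 of 31 in 8505C (median 0.16) and 18 of 29 in BHT-101 (median 0.02). Citric acid cycle genes were above 0 in 15 of 17 cases in 8505C, 11 of 17 in FTC-133 and 11 of 17 in BHT-101, with medians of 0.09, 0.03 and 0.09. The 8 genes of the pentose phosphate pathway, which branches from glycolysis at glucose 6-phosphate, were above 0 in 2 cases in 8505C, 5 in FTC-133 and 3 in BHT-101. Between lines, 7 of these 8 were lower and 1 higher in 8505C than in BHT-101, beside 32% and 30.1% of all genes. In FTC-133 4 were lower and none higher than in BHT-101, beside 18.7% and 30.2% of all genes.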

How the data were processed

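The members and gene lists were chosen with earlier results of these data known. The authors deposited 6 columns of FPKM, which were matched to samples by title. The submitters' processing notes name Trimmomatic 0.38, featureCounts 2.0.0 and GRCh38. No aligner, annotation release or strand setting was found there, and none is stated in the labels, so genes that overlap on either strand cannot be told apart. Names and positions came from GENCODE release 29, which may not be the authors' release. FPKM multiplied by exon length fell on whole multiples of 1 step per library for 74.6% of the 33848 genes above 0, at a tolerance of 0.001 reads, which gave the read totals. For genes whose length differed, the nearest length giving whole reads in all libraries within 0.01 was used for read numbers and intervals.

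Levels were analysed as log2(FPKM + 1), which understates differences of low genes. A gene counted as measured in a line at 1 FPKM or more in 1 or both libraries and called by size at a difference of 1 on that scale, with no test. For tests across lines, a trended limma fit (version 3.58.1, R 4.3.3) was adjusted by Benjamini-Hochberg over all genes tested, with the cell line as a block in the siRNA fit (4 libraries) and the arm fit (6 libraries, 1 FPKM in 3 or more). Libraries were paired by the cell line that the labels name. Fits were run on simulated data with planted differences larger than any member's difference between arms. The simulation therefore does not show what the arm fits can find at the sizes seen here. CRABP2, all members and called genes of the other lists were to be named, and others are marked as chosen later. Union exon lengths include rarely used exons, so levels of different genes compare only roughly. Alternatives were a pseudocount of 0.1, other filters, centring, quantile normalization, no block, an added arm term and leaving out lines or libraries. Promoter sequences are from RefSeq.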

Additional observations from a re-analysis of the deposited data

How the results depend on the processing

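The member count at a difference of 1 and the members' median kept within 1.5 times and 0.1 under most settings. With a pseudocount of 0.1, 2 members in 8505C passed the size, and the share of all measured genes that did so was 7.63% in 8505C, 9.96% in FTC-133 and 2.51% in BHT-101. With no filter on low values that share was 1.69%, 2.13% and 0.527% in the same order, and with a filter of 5 FPKM it was 0.501% in BHT-101. Opposite signs in FTC-133 and 8505C held for 63.6% to 71.4% of members under every such setting. Leaving out ALDOA, an alternative added after the data were seen, altered no call. With no replicate block the siRNA fit and the arm fit called 0 genes, as they did with the block, under which libraries are paired by cell line. Without cell line BHT-101 the arm fit called 1 gene, and without cell line FTC-133 it called 10, none of them a member. For FTC-133 against BHT-101, leaving out each library in turn gave 14 to 25 members and 2906 to 6795 genes. The low values came without a BHT-101 library, at 14 members without siControl and 15 without siCRABP2. For 8505C against BHT-101 the range was 14 to 23 members and 5165 to 8979 genes, and for 8505C against FTC-133 it was 22 to 24 members and 6638 to 7107 genes. No member's line difference that passed turned its direction under any setting run, and 59 such comparisons no longer passed, up to 17 of them in a single setting, without the BHT-101 siControl library. The causes were not tested. At 1 library per group, depth does not limit the abundant enzymes. In contrast, CA9, ALDOC and ANKRD37 outside FTC-133, and EGLN3 and SLC2A3 in FTC-133, rest on under 60 reads in each library.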
